A study of Mus musculus with 6 samples.

Results

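The collagen, laminin and matrix crosslinking genes of PyVT mammary tumor cells were compared between libraries labelled wild type and knockout for Nr4a1. Members were taken by symbol: every listed gene named as a collagen, laminin or nidogen chain, as Lox or Loxl1 to Loxl4, or as Plod1 to Plod3, plus Hspg2. This gave 47 of the 10995 genes in the deposited table, namely 28 collagens, 9 laminin chains, 1 nidogen, perlecan, 5 lysyl oxidases and 3 lysyl hydroxylases. All libraries came from MMTV-PyVT mice of the FVB/NJ strain, in which a mammary tumor virus promoter drives the polyoma middle T oncogene in mammary epithelium. The groups were 3 libraries with intact Nr4a1 (wild type) and 3 of the genotype Nr4a1-/-, from animals described as matched in age. The labels state no ages, treatment, culture or sorting of the cells. Nor do they say whether the replicates are separate animals, and each p-value therefore reflects library-to-library spread that could be technical.

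Matrix proteins form distinct structures with different makers. Fibrillar collagens assemble into the fibers of interstitial stroma and are made mainly by fibroblasts, whereas type IV collagen, laminins, nidogen and perlecan form the basement membrane sheet on which mammary epithelium and vessels rest. Lysyl hydroxylases modify collagen inside the cell, and lysyl oxidases then link collagen and elastin outside it, which stiffens tumor stroma.

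The libraries held between 19569173 and 24188875 counts, and the 47 genes took 0.878% to 1.34% of them with the wild type label and 1.27% to 1.92% with the knockout label. Levels are given as CPM, which scales each count to the TMM-adjusted size of its library, and values in a row follow replicates 1, 2 and 3. Nr4a1 transcript was no lower under the knockout label, at 25.1, 35.5 and 37.6 CPM against 34.5, 18.6 and 16.8 CPM with the wild type label, so directions below are between libraries as labelled. Wild type replicate 1 stood apart on the first principal component of all genes, at -51.3 against -2.22 to 28.8 for the others. All 11 luminal epithelial markers were listed, with a summed level of 6638 to 7466 CPM with the wild type label and 4219 to 5248 CPM with the knockout label.

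Most of the matrix genes had a positive log2 fold change (knockout label over wild type label), but the groups overlapped for most of them. The fold change was above 0 for 35 of 47 genes (74.5%, against 49.4% of all genes), and the median was 0.39 against -0.002 over all genes tested. The edgeR quasi-likelihood test, adjusted over all genes, called 0 of the 47, as it called 0% of all genes. Its unadjusted p was under 0.05 for 7 of the 47 genes (14.9%, against 7.88% of all genes), of which 6 had the knockout label higher (3.7% of all genes) and 1 lower (4.17% of all genes). DESeq2 called 2 genes, Col6a3 and Col9a3, against 0.938% of all genes in either direction and 0.583% with the knockout label higher, and limma-voom called 0, as for 0% of all genes. The 2 groups were fully separated in 6 of the 47 (12.8%), a smaller share than the 17.4% of all genes, with the knockout label above in 5 (8.39% of all genes) and below in 1 (9.05% of all genes).

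Wild type replicate 2 set much of that overlap. Without it, the groups did not overlap for 26 of the 47 genes (55.3%, against 33.1% of all genes), 21 had an unadjusted edgeR p under 0.05 (12.4% of all genes), and DESeq2 called 14 (3.8% of all genes). Without knockout replicate 1, 13 genes did not overlap, and 17 did not without knockout replicate 3, against 26.3% and 34.8% of all genes. Leaving out wild type replicate 1, then wild type replicate 3, then knockout replicate 2 gave 9, 9 and 7 genes, against 24.3%, 27.8% and 23.3%. At an unadjusted edgeR p under 0.05 there were 4 genes (against 6.95%, 4.67% and 3.53% of all genes) when the library left out was the third of the wild type label, or the first or second of the knockout label. Leaving out wild type replicate 1 gave 6 (6.85% of all genes), and leaving out knockout replicate 3 gave 10 (7.81%).

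**Figure D1:**
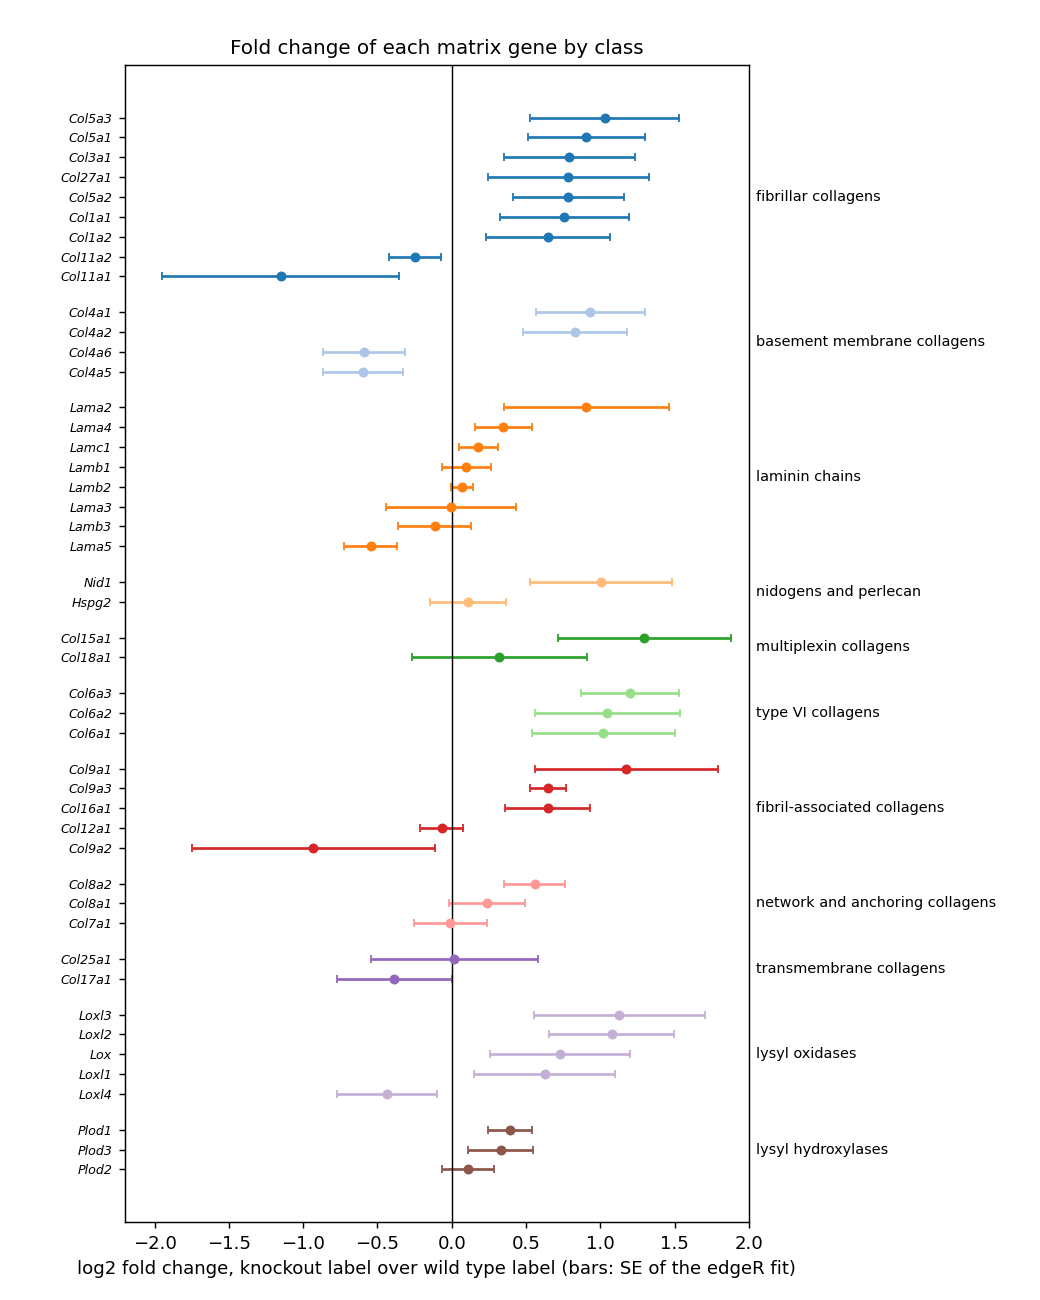
Log2 fold change (knockout label over wild type label) of matrix genes, grouped by class. Points are edgeR estimates from 3 libraries per group, and bars are the standard error of the fit. Most fibrillar and all type VI collagen genes lie to the right of 0, and the 4 type IV chains split into 2 above and 2 below.

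Among the fibrillar collagens, 9 of 11 were listed and 7 of those had a positive fold change, with a median of 0.79. Col1a1 (ENSMUSG00000001506.10, chromosome 11, 94936224 to 94953042, plus strand, GRCm38), the main chain of type I collagen, stood at 807, 2168 and 1264 CPM with the wild type label and 1988, 3435 and 1744 CPM with the knockout label. Its partner chain Col1a2 stood at 495, 1232 and 681 CPM and at 948, 1829 and 999.6 CPM. In both, wild type replicates 1 and 3 were the lowest of the 6 libraries, knockout replicate 2 was the highest, and wild type replicate 2 stood among the libraries labelled knockout. The mean of Col1a1 was 1413 CPM ± 693 (SD, n = 3) for the wild type group, against 2389 CPM ± 914 (SD, n = 3) for the knockout group, a log2 fold change of 0.76 (SE 0.43, edgeR adjusted p = 0.581). Col3a1, which forms fibers with type I collagen in soft tissue, stood at 120.5, 340.2 and 158 CPM and at 237, 402 and 434 CPM. Its groups overlapped through wild type replicate 2, and the fitted log2 difference was 0.79 (SE 0.44, edgeR adjusted p = 0.579).

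Type V collagen is incorporated into type I fibers and limits their diameter. Col5a2 stood at 423, 819 and 518 CPM with the wild type label and 753, 1503 and 778 CPM with the knockout label. Col5a1 stood at 128, 304 and 195 CPM and at 325, 562 and 289 CPM. Col5a3 stood at 30.7, 88.6 and 39.0 CPM and at 65.2, 159.6 and 98.5 CPM. In each of these genes wild type replicate 2 lay above at least 1 library labelled knockout while the other wild type libraries lay below all 3. Their log2 fold changes were 0.79 (SE 0.37), 0.91 (SE 0.39) and 1.03 (SE 0.50), and edgeR's adjusted p was 0.574 for each.

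The remaining fibrillar chains did not share this order. Col11a1, a chain best known from cartilage, stood at 464 CPM in wild type replicate 1, at 74.2 and 75.4 CPM in wild type replicates 2 and 3, and at 74.0, 71.0 and 131 CPM with the knockout label. Its log2 fold change of -1.15 (SE 0.80, edgeR adjusted p = 0.604) was 0.30 without wild type replicate 1, so its direction rests on that library. Col11a2 stood at 10.4, 14.3 and 11.9 CPM and at 10.6, 11.4 and 8.83 CPM, with overlapping groups and a log2 fold change of -0.25 (SE 0.17). Col27a1, a fibrillar chain of developing cartilage, stood at 4.85, 16.6 and 20.4 CPM and at 20.0, 34.0 and 18.3 CPM, where wild type replicate 1 alone was far below the rest.

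Markers of fibroblasts moved with these genes. Of 13 fibroblast markers 8 were listed, and their summed level was 1067 to 2274 CPM with the wild type label and 2101 to 4008 CPM with the knockout label. Most of each sum was Postn alone, at 806, 1679 and 991 CPM and at 1631, 3128 and 2801 CPM. The highest wild type sum belonged to replicate 2 and the highest knockout sum to replicate 2, as for Col1a1. All 8 had a log2 fold change above 0, with a median of 0.79, and 0 were called by edgeR or DESeq2, while Lum, Fap, Dpt, Fbln1 and Pi16 were not listed. Macrophage markers, 12 of 13 listed, summed to 829 to 973 CPM with the wild type label and 1182 to 1347 CPM with the knockout label. Lyz2 alone stood at 275, 529.5 and 257 CPM and at 822, 681 and 571 CPM. The mean log2 CPM of the list overlapped, at 4.83 in wild type replicate 2 and 4.76 in knockout replicate 3. Of these markers 11 lay above 0 and 1, Cd14, below (log2 fold change -0.50, SE 0.46). Fabp4, the sole listed gene of 9 adipocyte markers, stood at 2.71, 4.27 and 2.45 CPM and at 47.01, 78.1 and 26.6 CPM. Every listed gene reached at least 133 counts in its highest library. Fabp4 had 56, 93 and 52 counts with the wild type label, so it was listed only through the knockout label. The part of these markers in the collagen levels was not tested. In bulk RNA, more cells of a type and more RNA per cell cannot be told apart.

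**Figure D2:**
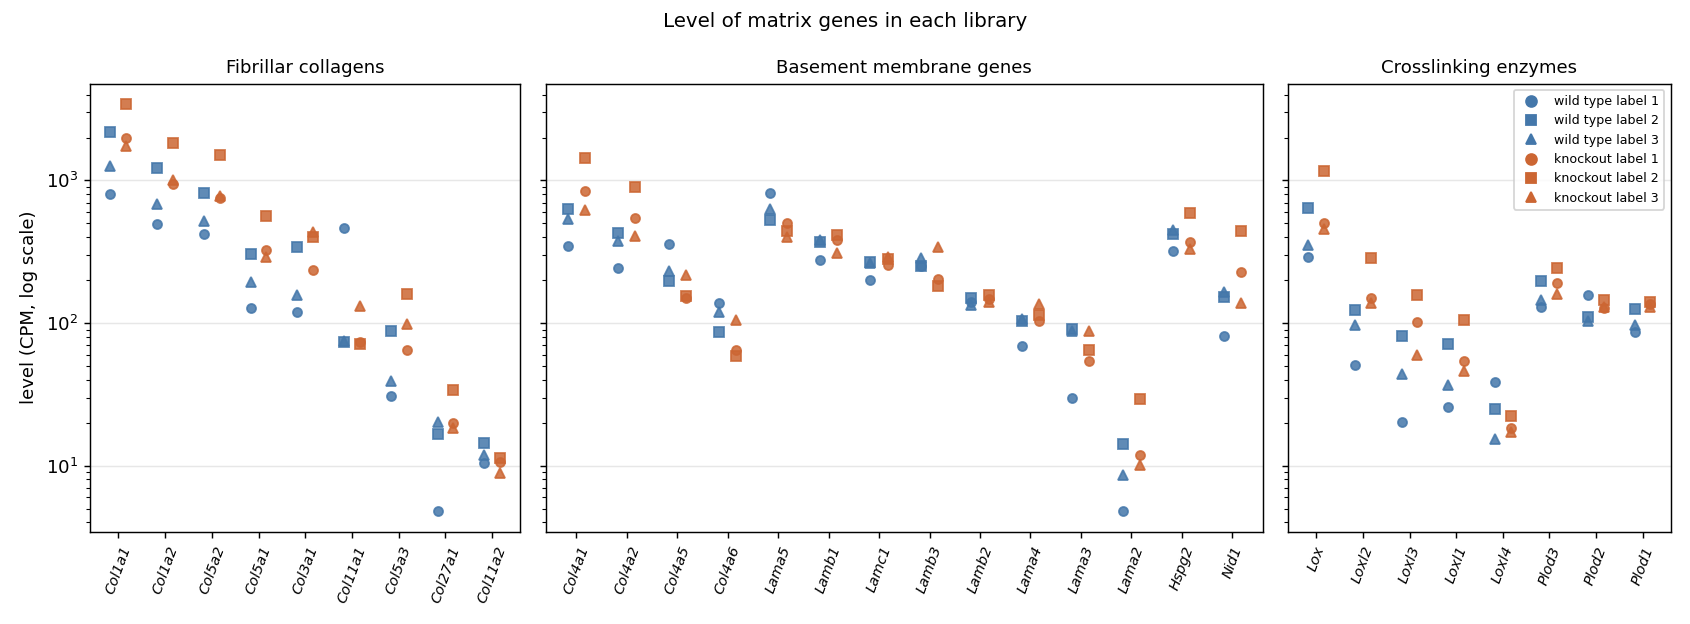
Level of fibrillar collagens, basement membrane genes and crosslinking enzymes in each library, in CPM on a log axis. Blue marks are the 3 libraries labelled wild type, orange marks the 3 labelled knockout, and the marker shape gives the replicate number. Knockout replicate 2 is the highest library for Col1a1, Col4a1, Nid1, Lox and Loxl2.

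Promoter sequences are shown for 5 members whose levels differed in different ways between the groups, to set their starts side by side. RefSeq gave promoter windows for 34 of the 47 genes on the reference assembly GRCm38.p6, which is not the FVB/NJ strain. Each stretch holds the 150 bases just before the annotated start, 5′ to 3′ on the gene's strand, and was taken only where no annotated exon lies in it. Capitals mark 3 short words on either strand, which are TATAAA of the TATA box, the word CCAAT of the CCAAT box and the word GGGCGG of the GC box.
Col3a1, chr1:45311388-45311537, plus strand: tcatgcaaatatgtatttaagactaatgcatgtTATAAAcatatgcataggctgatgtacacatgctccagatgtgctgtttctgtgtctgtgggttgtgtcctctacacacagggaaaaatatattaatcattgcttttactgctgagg
Col5a1, chr2:27886275-27886424, plus strand: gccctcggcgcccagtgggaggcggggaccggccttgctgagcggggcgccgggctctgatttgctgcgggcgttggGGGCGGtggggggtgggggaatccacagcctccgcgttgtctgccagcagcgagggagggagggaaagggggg
Col6a3, chr1:90843972-90844121, minus strand: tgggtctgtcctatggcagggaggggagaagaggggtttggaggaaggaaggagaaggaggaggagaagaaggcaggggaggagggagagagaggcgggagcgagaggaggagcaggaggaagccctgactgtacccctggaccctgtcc
Col4a6, chrX:141474077-141474226, minus strand: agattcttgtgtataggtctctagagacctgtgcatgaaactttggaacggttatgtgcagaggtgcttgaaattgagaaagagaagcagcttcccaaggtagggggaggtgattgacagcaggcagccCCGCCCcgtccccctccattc
Lama5, chr2:180225860-180226009, minus strand: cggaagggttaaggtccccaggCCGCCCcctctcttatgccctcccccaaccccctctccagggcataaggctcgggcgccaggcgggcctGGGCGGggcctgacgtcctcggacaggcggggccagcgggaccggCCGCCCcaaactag

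The starts of these genes differed in base composition. In the 250 bases before the start, Col3a1 had 35.2% G and C, Col4a6 47.6%, Col6a3 57.2%, Lama5 72.4% and Col5a1 76.4%. Searched on both strands of the same 250 bases, GGGCGG was present in 24 of the 38 promoters of matrix genes (63.2%) and in 32.7% of all 32851 RefSeq promoters. CCAAT was present in 15 of 38 (39.5%, against 33.8% of all) and TATAAA in 4 of 38 (10.5%, against 12.4% of all). Among the 7 promoters of fibrillar genes 6 held GGGCGG and 2 held TATAAA, and among the 12 of basement membrane genes 7 held GGGCGG. These matches describe letters in the windows and were not tested as binding sites.

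The 4 listed chains of type IV collagen, the network of the basement membrane, split by gene pair. Col4a1 (ENSMUSG00000031502.11, chromosome 8, 11198423 to 11312826, minus strand) and Col4a2 (ENSMUSG00000031503.13, chromosome 8, 11312805 to 11449287, plus strand) are transcribed away from each other, and their annotated exons overlap by 22 bases at the starts. Col4a1 stood at 349.6, 629.5 and 538 CPM with the wild type label and 846, 1429 and 621 CPM with the knockout label. Col4a2 stood at 242, 426 and 374 CPM and at 544, 905 and 406 CPM. In both genes only knockout replicate 3 lay within the range of the wild type libraries. Their log2 fold changes were 0.93 (SE 0.37, edgeR unadjusted p = 0.0438, adjusted p = 0.574) and 0.83 (SE 0.35, adjusted p = 0.574).

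Col4a5 and Col4a6 form the other listed pair, also head to head, on chromosome X with 1308 bases between them. They encode chains of an alternative type IV network that is more restricted in tissue than the first. Col4a5 stood at 359, 196 and 233 CPM with the wild type label and 149, 155 and 217 CPM with the knockout label. Col4a6 stood at 138, 86.7 and 119 CPM and at 64.4, 58.9 and 105 CPM. Knockout replicates 1 and 2 were the lowest libraries for both chains, and knockout replicate 3 lay within the wild type range. Their log2 fold changes of -0.60 (SE 0.27) and -0.59 (SE 0.28) did not pass, with an edgeR adjusted p of 0.574 for each. The summed level of Col4a1 and Col4a2 was 1.19, 3.73 and 2.59 times that of Col4a5 and Col4a6 with the wild type label and 6.52, 10.9 and 3.18 times with the knockout label. Only wild type replicate 2 and knockout replicate 3 overlapped in this ratio.

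Laminins are trimers of an alpha, a beta and a gamma chain, and the alpha chain sets which receptors bind. Lama5 (ENSMUSG00000015647.9, chromosome 2, 180176373 to 180225859, minus strand), the broad epithelial and vascular alpha chain, stood at 811, 530.5 and 630.03 CPM with the wild type label and 505, 443 and 404 CPM with the knockout label. All 3 libraries labelled knockout lay below all 3 labelled wild type, the only such case among the 47 genes. Its mean was 657 CPM ± 142 (SD, n = 3) for the wild type group, against 451 CPM ± 50.8 (SD, n = 3) for the knockout group, a log2 fold change of -0.54 (SE 0.18, edgeR unadjusted p = 0.0217, adjusted p = 0.574; DESeq2 adjusted p = 0.209). The luminal epithelial markers moved in the same direction, with 11 of 11 below 0 and a median of -0.50 on the log2 scale, and their part in the Lama5 level was not tested.

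The other laminin chains had overlapping groups. Lamb1, a widely expressed beta chain, stood at 278, 373 and 383 CPM with the wild type label and 381, 414 and 312 CPM with the knockout label. Lamc1, the common gamma chain, stood at 199.8, 267 and 263 CPM and at 256, 281 and 289.6 CPM. Over the 8 listed chains other than Lama5, log2 fold changes ran from -0.12 for Lamb3 to 0.90 for Lama2 (SE 0.56, edgeR adjusted p = 0.585), which is larger in size than that of Lama5. Lama2, of muscle and stroma, had the lowest median level per kilobase of exon of the 47 genes, 0.676 CPM. Lama4, of vessels, had a log2 fold change of 0.35 (SE 0.19), and Lama1 and Lamc3 were not listed.

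Nidogen bridges laminin and type IV collagen, and perlecan is a large heparan sulfate proteoglycan of the same sheet. Nid1 stood at 81.5, 153 and 166 CPM with the wild type label and 227, 440.2 and 138 CPM with the knockout label. Knockout replicate 3 lay below 2 wild type libraries, and a log2 fold change of 1.01 was fitted (SE 0.48, edgeR adjusted p = 0.574). Hspg2, perlecan, stood at 319, 422 and 452 CPM and at 369.8, 590.03 and 330.3 CPM. Wild type replicate 1 was the lowest and knockout replicate 2 the highest, with the other 4 libraries between them. The log2 fold change of 0.11 (SE 0.26) was -0.024 without wild type replicate 1, and leaving out knockout replicate 2 gave -0.18. Nid2 was not listed.

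Set against each other, fibrillar genes had the larger median difference between the labels. The 15 listed basement membrane genes (type IV collagens, laminins, Nid1 and Hspg2) had 10 of 15 values above 0 and their median was 0.098 on the log2 scale, against 0.79 for the 9 fibrillar genes, a difference of 0.69. The mean level of the fibrillar genes was 6.75, 7.59 and 7.01 log2 CPM with the wild type label and 7.40, 8.11 and 7.59 log2 CPM with the knockout label. For the basement membrane genes it was 7.19, 7.68 and 7.67 log2 CPM and 7.58, 7.90 and 7.62 log2 CPM. Both classes overlapped between the groups. Within a library, the fibrillar mean minus the basement membrane mean was -0.44, -0.09 and -0.66 with the wild type label and -0.18, 0.22 and -0.03 with the knockout label. Wild type replicate 2 lay above knockout replicate 1 in this difference, whose mean was -0.40 ± 0.29 (SD, n = 3) and 0.003 ± 0.20 (SD, n = 3). The groups overlapped more when medians were taken within each library, at -0.64, 0.27 and -0.73 with the wild type label and 0.06, 0.51 and -0.0015 with the knockout label, where wild type replicate 2 lay above knockout replicates 1 and 3.

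Single libraries moved these medians. Without knockout replicate 2 the fibrillar median was 0.40 and the difference between the classes 0.36. Without wild type replicate 1 the fibrillar median was 0.48, the basement membrane median -0.024 and the number of basement membrane genes above 0 was 7 of 15. No test was run over the genes of a class, since the classes were chosen with earlier results of these data known.

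**Figure D3:**
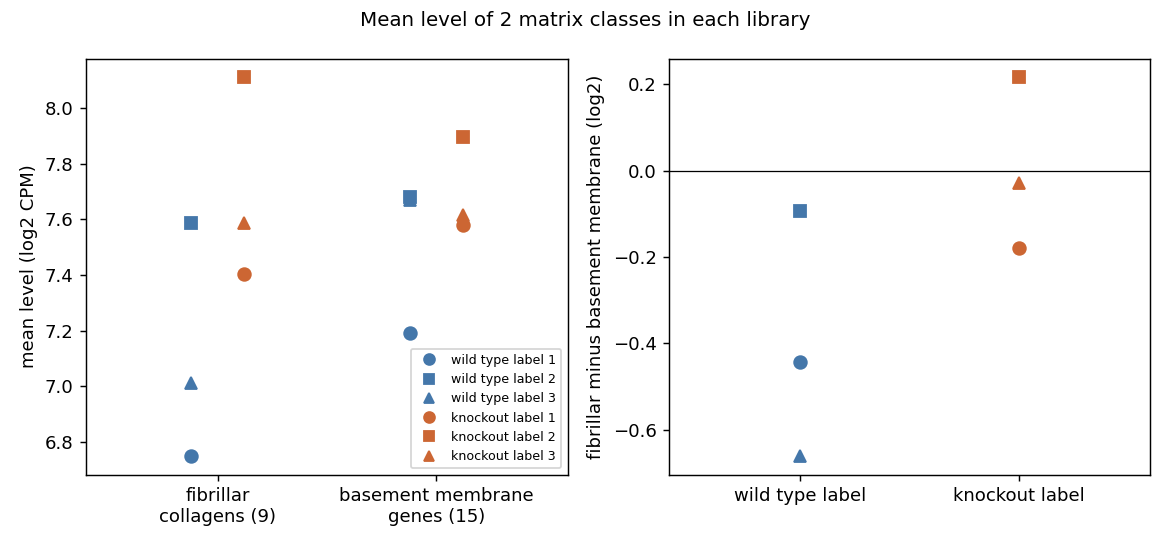
Mean level (log2 CPM) of 9 fibrillar collagen genes and 15 basement membrane genes in each library, left, and the difference of these means within each library, right. Points are single libraries. The difference is between -0.66 and -0.09 with the wild type label and between -0.18 and 0.22 with the knockout label.

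Type VI collagen, which forms beaded filaments around cells, had all 3 listed chains above 0, with a median log2 fold change of 1.05. Col6a3 (ENSMUSG00000048126.16, chromosome 1, 90765923 to 90843971, minus strand) stood at 153, 315 and 148 CPM with the wild type label and 451, 559.5 and 404 CPM with the knockout label. All 3 libraries labelled knockout lay above all 3 labelled wild type. The mean was 205 CPM ± 94.9 (SD, n = 3) for the wild type group, against 471 CPM ± 79.9 (SD, n = 3) for the knockout group, a log2 fold change of 1.20 (SE 0.33). The edgeR test did not call it (adjusted p = 0.574), whereas DESeq2 did (adjusted p = 0.0356). DESeq2 kept that call only without wild type replicate 2 (adjusted p = 1.28e-15), and its adjusted p was 0.0592 to 0.522 with any other library left out. Col6a1 stood at 11.3, 37.8 and 14.6 CPM and at 32.03, 45.5 and 51.8 CPM, and Col6a2 at 7.80, 25.8 and 9.13 CPM and at 23.0, 32.7 and 32.9 CPM. For both, wild type replicate 2 overlapped with knockout replicate 1.

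Among fibril-associated collagens, Col9a3 (ENSMUSG00000027570.15, chromosome 2, 180597790 to 180622189, plus strand), a type IX chain best known from cartilage, had the smallest p of all 47 genes. It stood at 36.3, 33.3 and 37.2 CPM with the wild type label and 56.3, 47.5 and 63.5 CPM with the knockout label, without overlap. The log2 fold change was 0.65 (SE 0.12), with an edgeR adjusted p of 0.574 and a DESeq2 adjusted p of 0.00488. DESeq2 lost the call without knockout replicate 1 (adjusted p = 0.122) and kept it with each other library left out. Its transcript shares 6.76% of its 31-base words with other genes, mainly Tcfl5 on the opposite strand, which is not listed.

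The other type IX chains had overlapping groups. Col9a2 stood at 76.1, 12.02 and 15.6 CPM and at 14.6, 9.85 and 30.1 CPM, with wild type replicate 1 far above the rest as for Col11a1. Its log2 fold change of -0.93 (SE 0.82) was 0.39 without that library. Col9a1 stood at 6.98, 7.80 and 12.9 CPM with the wild type label and 13.8, 8.51 and 40.3 CPM with the knockout label. Its log2 fold change of 1.18 (SE 0.62, edgeR adjusted p = 0.574) had the sign of that of Col9a3 and was 0.28 without knockout replicate 3, the highest library. Col16a1, found at the surface of fibers, stood at 62.1, 90.6 and 51.9 CPM and at 79.9, 99.5 and 141 CPM, with a log2 fold change of 0.65 (SE 0.28, edgeR adjusted p = 0.574). Col12a1, which decorates fibers under tension, stood at 1461, 1122 and 1373 CPM and 1122, 1261 and 1392 CPM. Its groups overlapped almost fully, with a log2 fold change of -0.07 (SE 0.15).

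Collagens outside these families showed mixed values. Col15a1 and Col18a1 lie at the basement membrane zone and release anti-angiogenic fragments. Col15a1 stood at 14.6, 63.2 and 21.2 CPM with the wild type label and 70.2, 111 and 62.5 CPM with the knockout label. It had the highest fold change of the 47 genes, 1.30 on the log2 scale (SE 0.58, edgeR adjusted p = 0.574), with knockout replicate 3 just below wild type replicate 2. Col18a1 stood at 33.8, 138 and 194 CPM and at 171, 170.3 and 116 CPM, with a log2 fold change of 0.32 (SE 0.59) that was -0.12 without wild type replicate 1. Markers of pericytes and smooth muscle, 10 of 12 listed, summed to 576 to 1383 CPM with the wild type label and 1133 to 2337 CPM with the knockout label. Acta2 made up much of this sum, at 154, 785 and 612 CPM and 800, 1399 and 542 CPM. The mean log2 CPM of the list did not overlap, at 4.26, 5.51 and 5.03 against 5.98, 6.54 and 5.80. It includes Rgs5 and Abcc9, whose wild type counts were all below 133, so they were listed only through the knockout label. Of the 10 genes 8 lay above 0 and 2, Notch3 and Mcam, below. The part of these markers in the collagen values was not tested. Of 12 endothelial markers only Esam was listed, at 2.28, 4.59 and 4.24 CPM and 11.3, 17.8 and 10.7 CPM. Its counts with the wild type label were 47, 100 and 90, so it too was listed only through the knockout label. Its difference between the labels was therefore not read as a result.

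Col7a1, which anchors epithelial basement membrane to stroma, stood at 248, 383 and 342 CPM with the wild type label and 323, 407 and 237 CPM with the knockout label. Col8a1, a short network collagen, stood at 162, 234 and 219 CPM and at 193, 333 and 200.3 CPM. In both the groups overlapped, with log2 fold changes of -0.01 (SE 0.25) and 0.24 (SE 0.26). Its partner Col8a2 stood at 6.98, 5.73 and 5.04 CPM and at 8.21, 7.42 and 10.5 CPM, without overlap, and a log2 fold change of 0.56 was fitted (SE 0.21, edgeR unadjusted p = 0.0343, adjusted p = 0.574). Col17a1, of epithelial hemidesmosomes, stood at 52.5, 74.2 and 57.6 CPM and at 32.5, 31.2 and 77.4 CPM, so knockout replicate 3 was the highest and the other libraries labelled knockout the lowest. Col25a1, a transmembrane collagen, stood at 27.04, 18.2 and 10.1 CPM and at 13.6, 9.48 and 33.1 CPM, with knockout libraries both highest and lowest.

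The lysyl oxidases had 4 of 5 genes above 0, and the median over the 5 was 0.73 on the log2 scale. Lox, which oxidizes lysines of collagen and elastin, stood at 290.4, 641 and 351 CPM with the wild type label and 499.9, 1164 and 459 CPM with the knockout label. The fit gave a log2 fold change of 0.73 (SE 0.47, edgeR adjusted p = 0.595), and the order of libraries was close to that of Col1a1, with wild type replicate 2 above knockout replicates 1 and 3. Loxl1, linked to elastic fibers, stood at 25.9, 71.0 and 36.9 CPM and at 54.4, 106 and 46.3 CPM. Loxl3 stood at 20.1, 81.2 and 44.2 CPM and at 102, 157 and 59.3 CPM. Wild type replicate 2 overlapped with the knockout label in both, and the log2 fold changes were 0.63 (SE 0.47) and 1.13 (SE 0.57).

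Loxl2, an oxidase that acts on type IV collagen, stood at 51.0, 124 and 96.2 CPM with the wild type label and 149, 286 and 137 CPM with the knockout label. These groups did not overlap, and a log2 fold change of 1.08 was fitted (SE 0.42, edgeR unadjusted p = 0.0437, adjusted p = 0.574). Its reads are uncertain, since 47.3% of the 31-base words of its transcript also occur in other genes, mainly the gene model Gm21451, which is not listed. Loxl3 shares 535 exonic bases with Htra2 on the opposite strand, so its reads are uncertain too. Loxl4 stood at 38.7, 24.8 and 15.3 CPM and at 18.5, 22.4 and 17.3 CPM, with overlapping groups and a log2 fold change of -0.44 (SE 0.34).

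Lysyl hydroxylases differed by less. Plod1, which acts on the helical part of collagen, stood at 86.0, 126 and 96.4 CPM with the wild type label and 136, 139.99 and 129 CPM with the knockout label. These groups did not overlap, with a log2 fold change of 0.39 (SE 0.15, edgeR unadjusted p = 0.0379, adjusted p = 0.574). Plod2, which acts on the telopeptides, stood at 158, 110.2 and 104 CPM and at 127, 145 and 129 CPM. Plod3, which also adds sugars to hydroxylysine, stood at 129, 199 and 145 CPM and at 189.8, 243 and 161 CPM. The groups overlapped for both, and the log2 fold changes were 0.11 (SE 0.17) and 0.33 (SE 0.22). Plod3 shares 529 exonic bases with Znhit1 on the opposite strand.

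Levels of chains that assemble with each other were compared per kilobase of exon within each library. Col1a1 stood 3.09 to 3.97 times above Col1a2 across the 6 libraries, and Col6a2 stood at 0.329 to 0.378 times Col6a1, so each of these pairs kept nearly the same ratio while its level varied. The ratio itself depends on the length used, since Col1a1 over Col1a2 was 1.47 to 1.89 by the longest annotated transcript. Col4a1 over Col4a2 was 1.28, 1.31 and 1.28 with the wild type label and 1.38, 1.40 and 1.36 with the knockout label, without overlap but by a small amount. Col4a5 over Col4a6 was 2.33 to 3.13 in all libraries. Across the pairs the ratio was far less stable, since Col4a1 over Col4a5 was 0.876, 2.89 and 2.08 with the wild type label and 5.12, 8.29 and 2.57 with the knockout label.

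Ratios between laminin chains and the remaining collagen ratios varied to different degrees. Lama3, an epithelial alpha chain, stood at 0.0725 times Lamb3 in wild type replicate 1 and 0.159 to 0.220 times in the others. Lama5 over Lamc1 was 2.95, 1.44 and 1.74 with the wild type label and 1.43, 1.14 and 1.01 with the knockout label, where the groups were separated only by the narrow gap between wild type replicate 2 and knockout replicate 1. Lamb1 over Lamc1 was 0.898 in knockout replicate 3 and 1.16 to 1.24 elsewhere. Col5a2 over Col5a1 was 2.054 to 2.92, and Col6a3 over Col6a1 was 2.85 to 5.15, with overlapping groups in both.

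**Figure D4:**
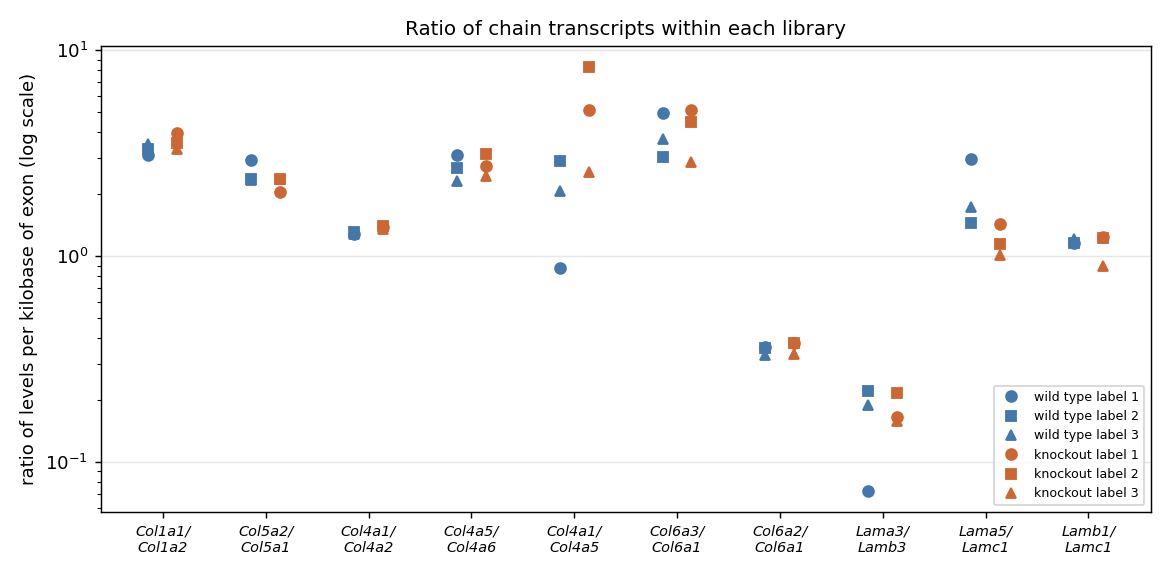
Ratio of levels per kilobase of exon between chain transcripts, in each library, on a log axis. Blue marks are libraries labelled wild type and orange marks those labelled knockout. Col1a1 over Col1a2 and Col6a2 over Col6a1 vary little, whereas Col4a1 over Col4a5 ranges from 0.876 to 8.29.

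Genes that fold, process and bind these proteins were read from lists of partners. Of 26 genes for collagen folding and processing 19 were listed, 17 of them above 0 with a median log2 fold change of 0.34. The edgeR test called 0, and DESeq2 called 1 higher (0.583% of all genes were called higher). Wild type and knockout libraries were fully separated for 4 of the 19, each with the knockout label above (8.39% of all genes). Adamts2, which removes the procollagen N-propeptide, stood at 25.3, 55.3 and 26.2 CPM and at 76.8, 103 and 85.3 CPM, with a log2 fold change of 1.31 (SE 0.34, edgeR adjusted p = 0.574, DESeq2 adjusted p = 0.0213). P4ha1, a prolyl hydroxylase subunit that stabilizes the collagen helix, stood at 77.8, 153 and 106 CPM and at 157, 250.1 and 159.8 CPM, also without overlap. P3h3, a prolyl 3-hydroxylase, stood at 13.96, 22.6 and 16.3 CPM and at 21.8, 34.04 and 26.3 CPM, with overlapping groups and a log2 fold change of 0.63 (SE 0.24).

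Of 14 proteins found with collagen fibers 6 were listed, 4 of them above 0, with a median of 0.73 and 0 called by edgeR or DESeq2. Their summed level was 9491 to 14776 CPM with the wild type label and 6160 to 13999 CPM with the knockout label. The 2 below 0 were Prelp and Fn1. Fn1 stood at 13804, 9361 and 8124 CPM and at 11990, 8066 and 4154 CPM, with a log2 fold change of -0.37 (SE 0.42). Bgn, the proteoglycan biglycan, stood at 239, 544 and 304 CPM with the wild type label and 538, 1018 and 489 CPM with the knockout label. Sparc, a collagen-binding glycoprotein, stood at 558, 1271 and 866 CPM and at 1145, 1938 and 1219 CPM. In both, wild type replicate 2 overlapped with the knockout label, and the log2 fold changes were 0.91 (SE 0.42) and 0.67 (SE 0.35). Fbn1, fibrillin, stood at 147, 315 and 183 CPM and at 307, 543 and 258 CPM, with the same overlap. Its log2 fold change was 0.78 (SE 0.39), and 20.2% of its 31-base words occur in other genes, mainly the opposite-strand model Gm9913.

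The medians of the collagen and laminin receptor lists lay on opposite sides of 0, with members of each list on both sides, and their difference was not tested. Of 9 collagen receptors 6 were listed, 4 of them above 0, and the median over the 6 was 0.80 on the log2 scale. Itga1, the alpha subunit of a collagen-binding integrin of stromal cells, stood at 8.97, 18.03 and 17.0 CPM with the wild type label and 34.7, 54.04 and 35.4 CPM with the knockout label. Itga11, of fibroblasts, stood at 31.1, 39.8 and 23.0 CPM and at 69.2, 77.1 and 41.3 CPM. Both are given for their small p, and neither overlapped between the groups (8.39% of all genes had the knockout label above). Their log2 fold changes were 1.496 (SE 0.32, edgeR adjusted p = 0.574, DESeq2 adjusted p = 0.00248) and 1.001 (SE 0.30, edgeR adjusted p = 0.574, DESeq2 adjusted p = 0.0980). DESeq2 called Itga1 alone among these receptors, higher, against 0.583% of all genes. Ddr1, the epithelial collagen receptor kinase, had a log2 fold change of -0.32 without overlap (9.05% of all genes had the knockout label below). Ddr2, a collagen receptor kinase of mesenchymal cells, stood at 12.65, 30.6 and 23.6 CPM and at 36.5, 69.85 and 27.05 CPM, with overlapping groups and a log2 fold change of 0.997 (SE 0.46).

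All 7 laminin receptors were listed, 4 of them below 0, and the median over the 7 was -0.39 on the log2 scale. Itgb4, the beta subunit of the hemidesmosomal integrin, stood at 549.6, 416 and 407 CPM with the wild type label and 312, 275 and 295 CPM with the knockout label. Itga3 stood at 875, 886 and 1034 CPM and at 797, 664 and 673 CPM. The groups did not overlap in either (9.05% of all genes had the knockout label below), with log2 fold changes of -0.64 (SE 0.14, edgeR adjusted p = 0.574, DESeq2 adjusted p = 0.00868) and -0.39 (SE 0.12, edgeR adjusted p = 0.574). DESeq2 called Itgb4 alone among these receptors, lower, against 0.355% of all genes. Itgb4 shares 6.52% of its 31-base words with other genes. Bcam, which binds laminin alpha 5, stood at 266, 143 and 150.5 CPM and at 75.3, 68.1 and 157 CPM, with knockout replicate 3 within the wild type range and a log2 fold change of -0.90 (SE 0.41).

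Among 14 other basement membrane genes 9 were listed, with 5 above 0 and a median of 0.06. Ntn4, a netrin that binds laminin gamma chains, stood at 28.5, 31.5 and 26.6 CPM with the wild type label and 41.9, 48.2 and 42.5 CPM with the knockout label, a log2 fold change of 0.61 (SE 0.10, edgeR adjusted p = 0.528, DESeq2 adjusted p = 0.000537). Hmcn1, hemicentin, stood at 4.51, 13.2 and 9.65 CPM and at 18.5, 26.5 and 18.1 CPM. Agrn, the heparan sulfate proteoglycan agrin, stood at 1755, 1317 and 1453 CPM and at 1099, 1194 and 1145 CPM, with a log2 fold change of -0.40 (SE 0.14, edgeR adjusted p = 0.574). None of these overlapped between the groups. Ntn4 and Hmcn1 were higher (8.39% of all genes) and Agrn lower (9.05% of all genes) in all 3 libraries labelled knockout. They are given for their small p, and the other listed genes of this list overlapped. DESeq2 called Ntn4 alone among the 9, higher, against 0.583% of all genes.

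**Figure D5:**
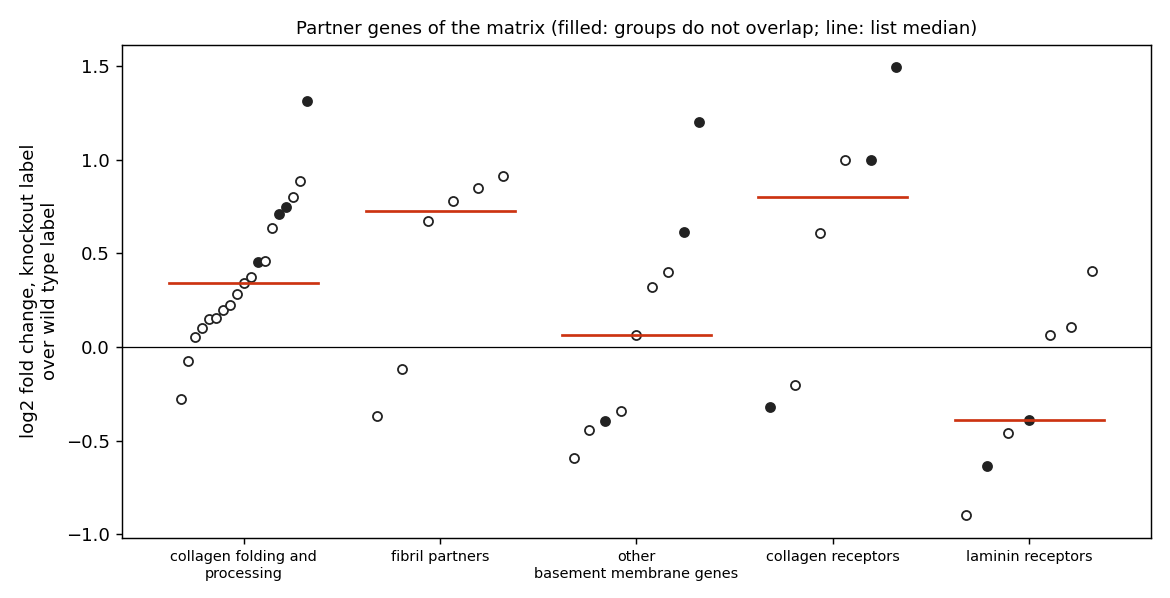
Log2 fold change (knockout label over wild type label) of listed partner genes in 5 lists. Each point is a gene, filled where the groups do not overlap, and the red line is the median of the list. The median is 0.80 for collagen receptors and -0.39 for laminin receptors.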

How the data were processed

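Values are raw counts of reads by gene symbol, deposited as 1 table over 6 libraries. CASAVA 1.8, HISAT2, featureCounts and GRCm38 (mm10) are named in the submitters' processing notes, which state neither annotation release nor strand or multi-mapping rules. Every row reached 133 counts or more in its highest library. Genes below that were not analysed here, and a member had to pass that unstated filter to be counted.

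Counts were fitted on the whole table with edgeR 4.0.16 in R 4.3.3 (filterByExpr, which removed 0 genes, TMM scaling, robust quasi-likelihood F test, group as the only term), with Benjamini-Hochberg adjustment at 0.05. DESeq2 1.42.0 and limma-voom (limma 3.58.1) were alternatives, and the fits were tested on simulated data. SE is the log2 fold change divided by the square root of F. Mean levels of lists used log2 CPM with a prior count of 2. Coordinates and exon lengths came from GENCODE M21 (GRCm38), and shared 31-base words were counted with Python 3.11.15 over its transcripts. No pair of libraries agreed within counting noise (smallest chi-square per degree of freedom 23.3). That closest pair was wild type replicate 2 with knockout replicate 1, across the labels.

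One member enters the counts and class means but is not reported here. The members and lists were chosen with earlier results of these data known. Values in every library are given for all fibrillar and type IV collagens, crosslinking enzymes, nidogen and perlecan, the 4 most abundant members of other classes, members called by a tool, the 5 with the smallest p in each direction, and the 3 with the smallest p in each partner list. The ratio of type IV pairs and the DESeq2 and overlap counts with a library left out were chosen after values were seen.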

Additional observations from a re-analysis of the deposited data

How the results depend on the processing

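With 3 libraries per group, differences under about the spread between libraries were not detectable, and some larger differences were not called either. Col9a3 differed between the labels by more than the spread within each group, yet edgeR and limma-voom did not call it. A gene that was not called is therefore not shown to be unchanged. The edgeR count of called members was 0 under RLE or library-size scaling, no or a stricter filter and no robust estimation. It was also 0 with the replicate block and with any library left out. The separate limma-voom test gave 0 and DESeq2 gave 2, while an unadjusted edgeR p under 0.05 gave 7. The labels do not say whether replicate numbers pair the libraries. Deviations from the group means correlated at -0.11, 0.35 and -0.25 for replicates 1, 2 and 3. For libraries with different numbers the correlations ran from -0.33 to 0.35. With 3 libraries per group these values cannot show whether the numbers mark pairs. With the replicate block 0 members were called, and 24 had an unadjusted edgeR p under 0.05 (7.84% of all genes), 22 of them higher and 2 lower. The fibrillar and basement membrane medians and their difference were then 0.81, 0.12 and 0.68.

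With single libraries left out, the fibrillar median ranged from 0.40 to 1.10, the basement membrane median from -0.024 to 0.23, and their difference from 0.36 to 0.87. Ranges that crossed 0 were -1.55 to 0.30 for Col11a1, -1.49 to 0.39 for Col9a2, -0.036 to 0.21 for Lamb1, -0.44 to 0.051 for Lamb3, -0.37 to 0.23 for Lama3, -0.18 to 0.27 for Hspg2, -0.12 to 0.83 for Col18a1, -0.17 to 0.012 for Col12a1, -0.21 to 0.17 for Col7a1, -0.060 to 0.38 for Col8a1, -0.67 to 0.40 for Col25a1 and -0.00047 to 0.32 for Plod2. Near 0, Lama3 also changed sign to 0.0099 with library-size scaling, 0.12 with the block and 0.12 with limma-voom, Col7a1 to 0.010 with library-size scaling, and Col25a1 to -0.12 with the block and -0.12 with limma-voom. By longest transcript length, mean ratios over all libraries were 1.65 for Col1a1 over Col1a2 (3.46 by exon length), 3.45 for Col5a2 over Col5a1, 1.47 for Col4a1 over Col4a2, 2.35 for Col4a5 over Col4a6, 0.566 for Col6a2 over Col6a1 and 1.82 for Lamb1 over Lamc1. The cause of these changes was not tested, except that another length rescales every library alike.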

Other observations

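The library in which Col11a1 and Col9a2 were high, wild type replicate 1, also had the highest levels of 2 transcription factor genes known for their role in cartilage. These genes were chosen after their values were seen. Sox9 stood at 476, 230.2 and 189.8 CPM with the wild type label and 187, 152 and 251 CPM with the knockout label. Sox6 stood at 48.9, 13.03 and 10.4 CPM and at 7.596, 4.99 and 17.0 CPM. In all 4 genes knockout replicate 3 was the highest library labelled knockout. Other chains known from cartilage, or their partners, were not high in wild type replicate 1. Col9a1 and Col27a1 were there at their lowest of the 6 libraries, at 6.98 and 4.85 CPM. Col9a3, at 36.3 CPM, lay between the other wild type libraries, and Col11a2, at 10.4 CPM, lay below them. Col2a1, the main cartilage collagen, was not listed.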
